A study of Homo sapiens with 8 samples.

Results

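Genes of the prostaglandin pathway and annexin A1 were compared between untreated and dexamethasone-treated cultures of A549, an epithelial line that was established from a human lung adenocarcinoma. The set held 10 genes, picked by symbol from the 19158 genes of the deposited tables, and all 10 were found: PLA2G4A, PTGS1, PTGS2, PTGES, PTGES2, PTGER2, PTGER4, HPGD, PTGR1 and ANXA1. RNA was measured in 8 libraries, 4 from untreated wells and 4 from wells given 1 µM dexamethasone, a synthetic glucocorticoid, for 48 h. All wells were labelled wild type and carried 1 batch label, and each group had replicates 1, 3, 4 and 5. The wells came from 1 cell line, so a p-value here measures the spread between wells.

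Prostaglandins are short-range lipid signals. Cytosolic phospholipase A2 (PLA2G4A) frees arachidonic acid from membranes, the cyclooxygenases (PTGS1, largely constitutive, and PTGS2, inducible by inflammatory signals) oxidise it to prostaglandin H2, and the prostaglandin E synthases (PTGES, PTGES2) convert that to prostaglandin E2. Prostaglandin E2 acts through receptors such as EP2 (PTGER2) and EP4 (PTGER4), which raise cyclic AMP, and is inactivated by hydroxyprostaglandin dehydrogenase (HPGD) followed by prostaglandin reductases such as PTGR1. Annexin A1 (ANXA1) is a phospholipid-binding protein long studied as a mediator of glucocorticoid action, because it can restrain phospholipase A2 and signal to leukocytes through formyl peptide receptors.

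Values are FPKM, fragments scaled to transcript length and to library depth, after a further scaling between libraries. Where 4 values are listed for a group, they follow the order of replicates 1, 3, 4 and 5. The steps between low values corresponded to an estimated 24880000 to 28510000 fragments per library. The treatment labels were checked on FKBP5, TSC22D3 and PER1, known glucocorticoid targets, which rose with no overlap between the groups and with log2 fold changes of 4.33, 3.87 and 1.94 (limma adjusted p = 1.12e-06, 4.69e-07 and 3.92e-05). Epithelial keratins were abundant (KRT8 averaged 1502 ± 650 FPKM without treatment, SD, n = 4), whereas EPCAM lay between 0.151 and 0.704 FPKM in the 8 libraries. KRT19 fell from 160 ± 55.7 to 55.0 ± 10.9 FPKM (SD, n = 4, limma adjusted p = 0.0014), and CDH1 rose from 6.71 ± 0.838 to 18.3 ± 2.06 FPKM (limma adjusted p = 8.15e-05). Of 8 leukocyte, endothelial and fibroblast markers, 5 stayed under 0.5 FPKM in all libraries, among them PTPRC, listed at 0 in each. The summed level of the 8 was 7.29 to 11.8 FPKM in untreated and 3.29 to 4.48 FPKM in dexamethasone libraries, carried by CD14, CD68 and COL1A1, which all fell. Of these, COL1A1 reached 0.5 FPKM only in the untreated libraries. The summed level of 5 epithelial markers, mostly KRT8 and KRT18, was 1760 to 4200 FPKM in untreated and 2490 to 3570 FPKM in dexamethasone libraries. Whether either sum has a part in the results below was not tested. Replicate 5 stood apart from the other libraries in both groups, and a named gene is given with and without it where this changed its call.

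After dexamethasone PTGS2 fell, and both receptors (PTGER2 and PTGER4) and both inactivating enzymes (HPGD and PTGR1) rose. PLA2G4A, PTGES, PTGES2 and ANXA1 did not pass the test, and PTGS1 was too low to be tested. Of the 9 members tested, 4 were thus higher and 1 lower at an adjusted p under 0.05 (limma, Benjamini-Hochberg over 12152 genes), where 12.5% of all tested genes were higher, 14.3% lower and 26.7% called in either direction. The 2 groups of libraries did not overlap for the same 5 members, as for 14.6% of all tested genes in the higher and 17% in the lower direction. PTGER2 passed the filter on low values only through the dexamethasone libraries, so its presence among the tested members is no support. In bulk RNA, fewer cells expressing a gene and less of its RNA per cell cannot be told apart.

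**Figure D1:**
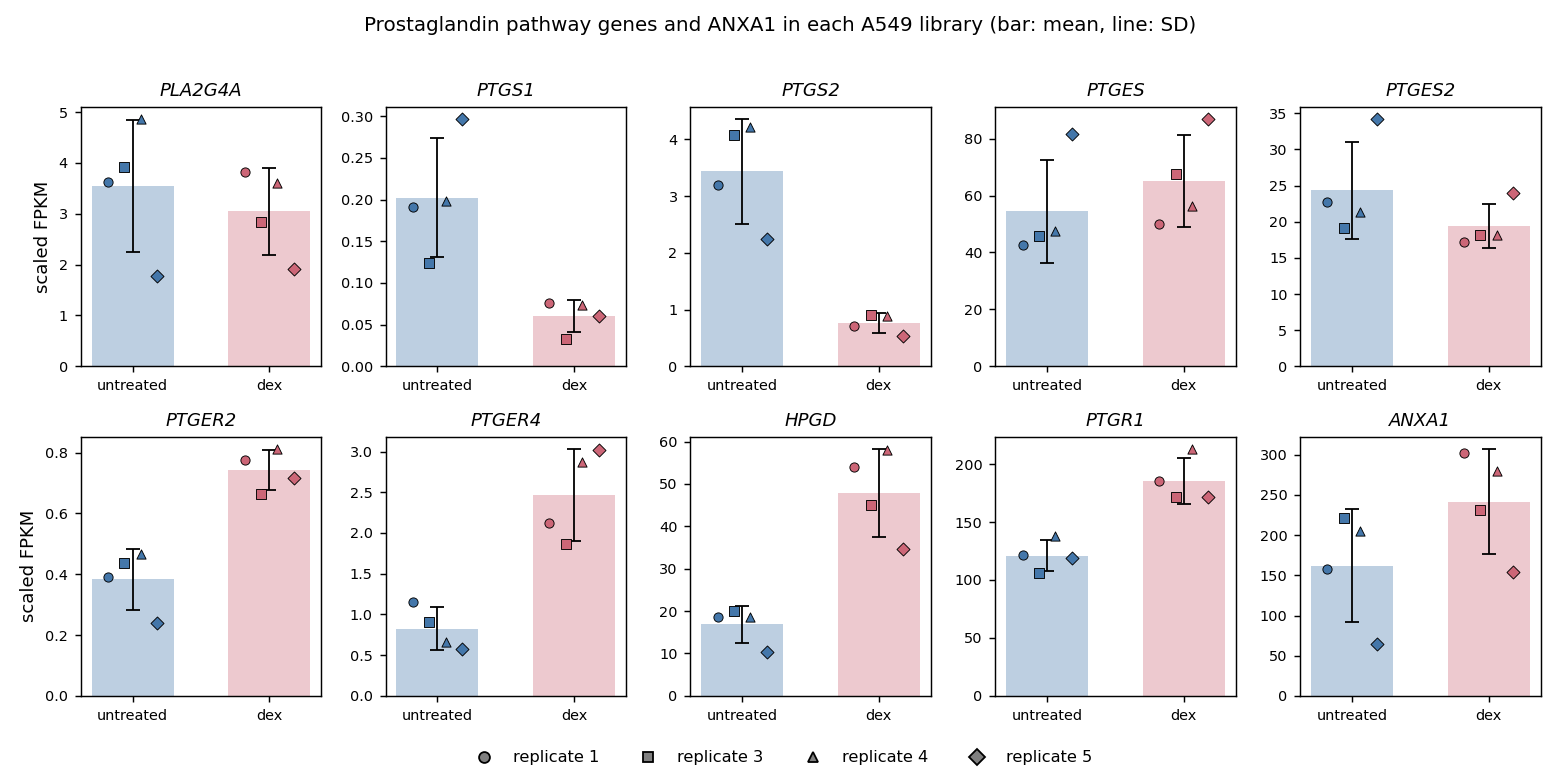
Scaled FPKM (y axis, linear from 0, a separate scale for each gene) of the 10 genes in untreated and dexamethasone (dex) libraries. Points are libraries, marked by replicate number, bars are means and lines are SD (n = 4). PTGS1 and PTGS2 lie lower in all 4 dexamethasone libraries, PTGER2, PTGER4, HPGD and PTGR1 lie higher in all 4, and the groups of the other 4 genes overlap.

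The first step is the release of arachidonic acid. PLA2G4A (ENSG00000116711, chromosome 1, 186828953 to 186988981, plus strand, GRCh38 as are all coordinates here) was at 3.62, 3.92, 4.86 and 1.77 FPKM without treatment. It was at 3.82, 2.83, 3.61 and 1.92 FPKM after dexamethasone. Replicate 5 was the lowest library of both groups and the groups overlapped. The log2 fold change, taken here and below on the log2(FPKM + 1) scale, which understates the change of low genes, was -0.14 (95% interval -0.70 to 0.41, limma adjusted p = 0.693). The dependence of the values on gene GC content was also fitted and taken out per library (GC trend removed, below). The log2 fold change was then -0.50 and passed the test (limma adjusted p = 0.00267). That fit called 4427 of 12152 genes. PTGS2, PLA2G4A, ANXA1, HPGD and PTGR1, with the lower GC contents, had lower estimates in it. PTGES, PTGES2, PTGER2 and PTGER4, with the higher GC contents, had higher estimates. Its calls thus include a shift that went with GC content.

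Among the cyclooxygenases, PTGS2 (ENSG00000073756, chromosome 1, 186671791 to 186680427, minus strand) lies 148525 bases from PLA2G4A. It was at 3.20, 4.08, 4.23 and 2.24 FPKM without treatment. After dexamethasone it was at 0.711, 0.913, 0.893 and 0.543 FPKM. The highest treated library thus lay under the lowest untreated one, and mean FPKM was 4.49-fold lower. PTGS2 fell by 1.31 on the log2 scale (95% interval -1.68 to -0.94, SE 0.164, limma adjusted p = 0.000359). The fall was -1.42 without both libraries numbered 5 and -1.67 with the GC trend removed.

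The 250 bases before the start site of PTGS2 are shown because this promoter is known to be driven by inflammatory and cyclic AMP signals, and those of HPGD, a member that rose, and ANXA1 are shown for comparison. They are RefSeq sequences on GRCh38.p14, written 5′ to 3′ on the strand of the gene: PTGS2 is chr1:186680424-186680673 (minus strand), HPGD chr4:174522489-174522738 (minus strand) and ANXA1 chr9:73151615-73151864 (plus strand). Capitals mark matches on either strand to 6 motifs: the TATA box (TATAAA), the full palindromic glucocorticoid receptor site, AGAACA (its half-site), a loose form of the NF-kB site, CGTCA (a cAMP response element half-site) and TTNCGCAA (a C/EBP site).
PTGS2: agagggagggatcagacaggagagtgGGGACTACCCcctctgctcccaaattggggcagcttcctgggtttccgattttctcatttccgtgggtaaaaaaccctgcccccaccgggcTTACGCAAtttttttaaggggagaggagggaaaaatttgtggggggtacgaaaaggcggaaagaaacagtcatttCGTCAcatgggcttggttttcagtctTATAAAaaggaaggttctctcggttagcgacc
HPGD: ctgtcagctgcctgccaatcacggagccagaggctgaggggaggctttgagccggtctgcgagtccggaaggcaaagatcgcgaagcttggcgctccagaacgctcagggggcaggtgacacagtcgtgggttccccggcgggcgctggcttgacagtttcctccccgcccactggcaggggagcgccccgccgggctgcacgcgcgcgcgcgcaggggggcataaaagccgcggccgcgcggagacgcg
ANXA1: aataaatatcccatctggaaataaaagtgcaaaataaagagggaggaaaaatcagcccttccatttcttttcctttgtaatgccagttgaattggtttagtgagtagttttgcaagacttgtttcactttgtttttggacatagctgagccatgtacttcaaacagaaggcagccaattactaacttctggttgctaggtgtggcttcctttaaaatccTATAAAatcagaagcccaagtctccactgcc
The PTGS2 window held 4 of the 6 motifs: the loose NF-kB site 224 to 215 bases before the start, the C/EBP site at 133 to 126, the cAMP response half-site at 58 to 54 and the TATA box at 32 to 27. None of these overlapped another. The 6 motifs include sites for the signals known to drive PTGS2, so the number held is a description and no support. Over 35116 promoter windows of the same length, 19.67% held a match to the loose NF-kB site, 0.75% to the C/EBP site, 21.22% to the cAMP response half-site and 10.72% to the TATA box. ANXA1 held a TATA box at 31 to 26 bases before the start and no other match, and HPGD held none of the 6. Neither form of the glucocorticoid receptor site had a match in any of the 10 members' windows, against 0.33% (full site) and 12.39% (half-site) of all windows. Among the other members, PTGER4 held 1 loose NF-kB match, PTGER2 held 1 cAMP response half-site on its minus strand and PTGS1 held 1 TATA match on its minus strand. A match describes the letters only, and the absence of one says nothing about binding elsewhere.

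PTGS1, the constitutive cyclooxygenase (ENSG00000095303, chromosome 9, 122370530 to 122395703, plus strand), was near the lower limit of measurement. It was at 0.191, 0.123, 0.198 and 0.296 FPKM without treatment, and at 0.0755, 0.0332, 0.0732 and 0.0600 FPKM after dexamethasone. All 4 treated libraries were lower than all 4 untreated ones, but the gene did not reach the minimum of 0.5 FPKM in any library. Without a filter on low values its log2 fold change was -0.18 (limma adjusted p = 0.0169), in a fit where 21.7% of 16561 genes passed. A non-coding gene annotated on the same strand overlaps PTGS1, so its low values are uncertain. The level of PTGS2 was above that of PTGS1 in every library, with a ratio of FPKM of 7.56 to 33.1 in untreated and 9.05 to 27.5 in dexamethasone libraries, which overlap.

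**Figure D2:**
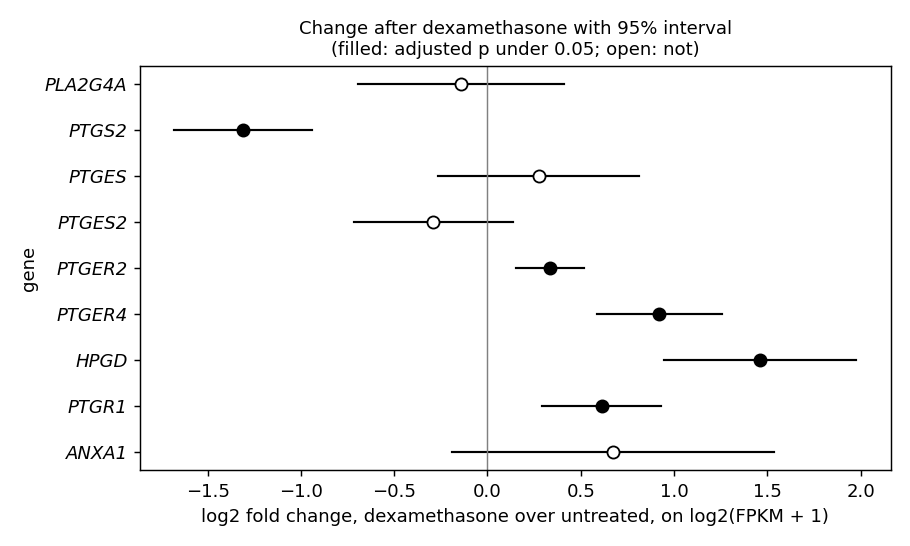
Log2 fold change of dexamethasone over untreated on the log2(FPKM + 1) scale (x axis) for the 9 tested genes (y axis), with the limma 95% interval as a line. Filled points passed an adjusted p of 0.05: PTGS2 lies at -1.31, and PTGER2, PTGER4, HPGD and PTGR1 lie between 0.33 and 1.46.

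The prostaglandin E synthases were expressed at higher levels than the cyclooxygenases, and neither passed the test. PTGES, the microsomal synthase that is often induced together with PTGS2 (ENSG00000148344, chromosome 9, 129738331 to 129753047, minus strand), was at 42.6, 45.9, 47.5 and 81.6 FPKM without treatment. After dexamethasone it was at 49.9, 67.5, 56.3 and 86.8 FPKM. The groups overlapped because of the high untreated replicate 5, and the log2 fold change was 0.27 (95% interval -0.26 to 0.81, limma adjusted p = 0.419). With the GC trend removed, where 4427 of 12152 genes were called, it was 0.47 and passed (limma adjusted p = 0.0267). PTGES thus did not share the direction of PTGS2 in any fit that was run.

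PTGES2, a membrane-associated synthase (ENSG00000148334, chromosome 9, 128120693 to 128128462, minus strand), was at 22.8, 19.1, 21.4 and 34.1 FPKM without treatment. It was at 17.2, 18.2, 18.2 and 24.0 FPKM in the corresponding dexamethasone libraries. The groups overlapped only through treated replicate 5, and the log2 fold change was -0.29 (95% interval -0.72 to 0.14, limma adjusted p = 0.281). It was -0.02 with the GC trend removed. The ratio of PTGES to PTGES2 within a library was 2.22 ± 0.248 in untreated and 3.33 ± 0.391 in dexamethasone cells (SD, n = 4), with no overlap (1.87 to 2.41 against 2.90 to 3.70). No test was made of this ratio, which is a description only. The 95% intervals given above for PTGES and PTGES2 both included 0. The cytosolic synthase PTGES3, also a co-chaperone of steroid receptors, had the highest untreated mean of these 3 enzymes, 85.2 ± 12.5 FPKM, and averaged 79.5 ± 5.17 FPKM after dexamethasone (SD, n = 4, log2 fold change -0.09, limma adjusted p = 0.675). With the GC trend removed, where 4427 of 12152 genes were called, PTGES3 was at -0.32 and passed (limma adjusted p = 0.0166).

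Both receptors rose from low levels. PTGER4, the EP4 receptor (ENSG00000171522, chromosome 5, 40679498 to 40693735, plus strand), was at 1.15, 0.907, 0.666 and 0.575 FPKM without treatment and at 2.12, 1.86, 2.87 and 3.02 FPKM after dexamethasone. The groups did not overlap and mean FPKM was 2.99-fold higher (log2 fold change 0.92, 95% interval 0.59 to 1.26, SE 0.149, limma adjusted p = 0.00165). Replicate 5 was the lowest untreated and the highest treated library.

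PTGER2, the EP2 receptor (ENSG00000125384, chromosome 14, 52314305 to 52328606, plus strand), was at 0.392, 0.435, 0.467 and 0.240 FPKM without treatment. It was at 0.776, 0.663, 0.812 and 0.718 FPKM in the dexamethasone libraries, all of them above all untreated ones. The log2 fold change was 0.33 (95% interval 0.15 to 0.52, SE 0.0824, limma adjusted p = 0.0142). With a minimum of 1 FPKM in 4 libraries it was not tested. None of the other 7 prostanoid receptors, among them PTGER1, PTGER3 and the thromboxane receptor TBXA2R, reached the filter, and PTGER3, PTGDR and PTGFR were listed at 0 in all 8 libraries. PTGER1 was at 0 in untreated replicate 5 and between 0.115 and 0.239 FPKM in the other 7 libraries. PTGER4 exceeded PTGER2 in each library (ratio 1.43 to 2.94 untreated, 2.73 to 4.21 treated).

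The inactivating enzymes rose as well. HPGD (ENSG00000164120, chromosome 4, 174490177 to 174523154, minus strand) was at 18.7, 19.9, 18.6 and 10.4 FPKM without treatment. After dexamethasone it was at 54.0, 45, 57.9 and 34.6 FPKM. Every treated library lay above every untreated one, although replicate 5 was the lowest of both groups. Mean FPKM was 2.83-fold higher (log2 fold change 1.46, 95% interval 0.94 to 1.98, SE 0.230, limma adjusted p = 0.0014). The rise was 1.40 without both libraries numbered 5 and 1.13 with the GC trend removed. It moved HPGD from the 81.3rd to the 93.9th percentile of all 19158 genes by mean FPKM.

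PTGR1, which reduces the product of HPGD and also inactivates leukotriene B4 (ENSG00000106853, chromosome 9, 111549722 to 111599893, minus strand), was already abundant in untreated cells. It was at 122, 106, 138 and 119 FPKM without treatment and at 185, 172, 213 and 172 FPKM after dexamethasone. The groups did not overlap, and the log2 fold change was 0.61 (95% interval 0.29 to 0.93, SE 0.143, limma adjusted p = 0.011). Replicate 5 of PTGR1 lay close to the mean of the other 3 libraries in both groups (ratios of 0.973 and 0.905). HPGD, PTGER4 and PTGR1 overlap genes annotated on the opposite strand, which could share reads if strand was ignored in the counting, and the use of strand is not given in the sources used here.

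Set beside each other, the inducible cyclooxygenase and the inactivating dehydrogenase moved in opposite directions. HPGD stood at 5.83, 4.89, 4.40 and 4.67 times the FPKM of PTGS2 without treatment. The ratio was 76.0, 49.3, 64.8 and 63.7 in the dexamethasone libraries. These ratios are descriptions of a pair picked with its values known, and no test was made. Both genes were low in replicate 5, and their ratio there lay inside the range of the other libraries.

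**Figure D3:**
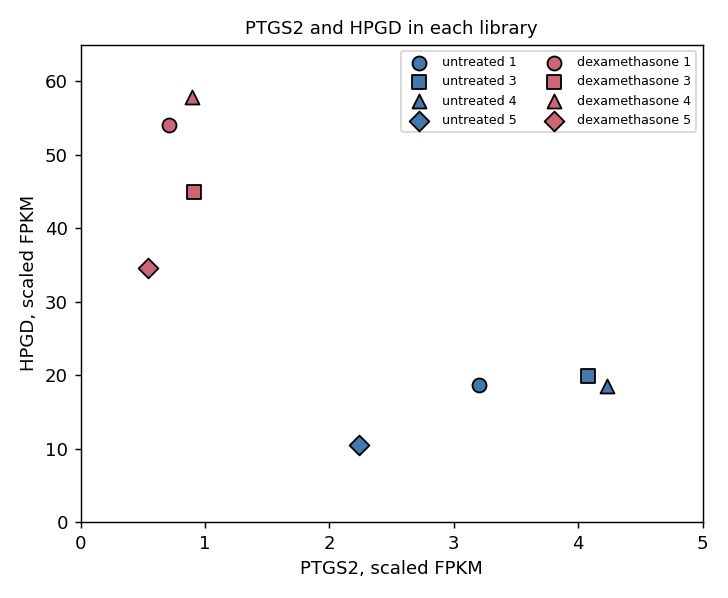
Scaled FPKM of PTGS2 (x axis) and HPGD (y axis) in the 8 libraries, colour for group and marker for replicate. Untreated libraries lie at 2.24 to 4.23 FPKM of PTGS2 and 10.4 to 19.9 FPKM of HPGD, and treated ones at 0.543 to 0.913 and 34.6 to 57.9 FPKM, with replicate 5 the lowest in both genes in each group.

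ANXA1 (ENSG00000135046, chromosome 9, 73151757 to 73170393, plus strand) was the most abundant member in both groups by mean FPKM. It was at 158, 221, 205 and 64.1 FPKM without treatment, and at 302, 232, 279 and 154 FPKM after dexamethasone. The groups overlapped, because replicate 5 of the treated group lay under 3 of the untreated libraries. The log2 fold change of 0.67 had an interval that included 0 (95% interval -0.19 to 1.54, SE 0.385, limma adjusted p = 0.221).

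The size of the ANXA1 difference depended on replicate 5. It was 0.26 without untreated replicate 5 (limma adjusted p = 0.424) and 0.88 without dexamethasone replicate 5 (limma adjusted p = 0.121). With the GC trend removed it was 0.34 (limma adjusted p = 0.26). Without both replicates numbered 5 it was 0.48 and passed the test (limma adjusted p = 0.0344). In that fit 5512 of 12232 tested genes were called. The estimate was positive in each of the 18 other settings.

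Replicate 5 differed from the rest of its group in a way that went with the base composition of the members. PTGS2, PLA2G4A, ANXA1 and HPGD, whose transcripts had a mean GC content of 38.8% to 40.0%, were at 0.330 to 0.584 of the mean of the other 3 libraries in untreated replicate 5 and at 0.562 to 0.661 in dexamethasone replicate 5. PTGES and PTGES2, at 56.6% and 63.2% GC, were at 1.80 and 1.62 in untreated and 1.5 and 1.34 in dexamethasone replicate 5. PTGER2 and PTGER4, at 52.8% and 58.0% GC, departed from this order in untreated replicate 5, at 0.557 and 0.632. What produced the difference was not tested. The 5 called members kept their calls and directions without both libraries numbered 5, where 5512 of 12232 tested genes were called.

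**Figure D4:**
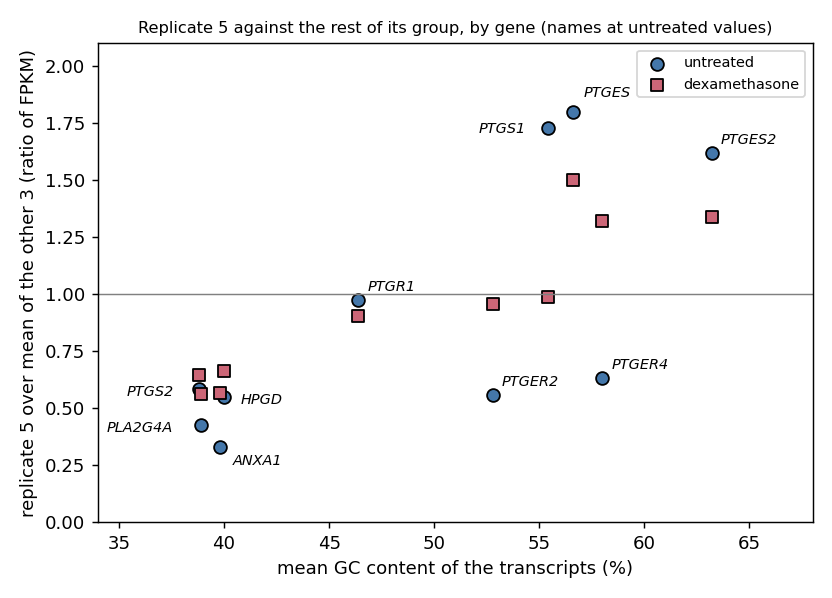
FPKM in replicate 5 divided by the mean of the other 3 libraries of the same group (y axis, 1 marks no difference) against the mean GC content of each gene's transcripts in percent (x axis), for the 10 genes in untreated (circles) and dexamethasone (squares) cells. The 4 genes at 38.8% to 40.0% GC lie at 0.330 to 0.661 in both groups, and PTGES and PTGES2 lie at 1.34 to 1.80.

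By level per transcript length, the order of means in untreated cells was ANXA1 (162 ± 70.5 FPKM, SD, n = 4), PTGR1, PTGES, PTGES2, HPGD, PLA2G4A, PTGS2, PTGER4, PTGER2 and PTGS1 (0.202 ± 0.0712). Neighbours in this order whose libraries overlapped were ANXA1 and PTGR1, PTGES2 and HPGD, PLA2G4A and PTGS2, and PTGER2 and PTGS1. After dexamethasone HPGD (47.9 ± 10.4 FPKM) stood above PTGES2 (19.4 ± 3.09 FPKM), and PTGER4 (2.47 ± 0.565 FPKM) stood above PTGS2 (0.765 ± 0.174 FPKM), in both cases with no overlap between libraries.

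The genes with patterns most like those of PTGS2 and ANXA1 over the 8 libraries were taken by Pearson correlation of log2(FPKM + 1). For PTGS2 they were the chemokine gene CXCL5 (r = 0.997), FAM72C and RPIA (r = 0.995 each), and 463 tested genes had r above 0.9. CXCL5 averaged 44.5 ± 9.93 FPKM without and 13.9 ± 1.38 FPKM with dexamethasone (SD, n = 4). For ANXA1 they were NEK7, DPY19L4 and ICE1 (r = 0.998 each), and 1573 tested genes had r above 0.9. The transcripts of these 3 genes had a GC content of 40.0% to 41.4%, close to the 39.8% of ANXA1. The 8 libraries share their 2 groups and the departure of replicate 5, so these correlations describe patterns and nothing more.

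The rest of the pathway was read from 7 lists of 62 genes, of which 61 were measured (FPR3 was not matched) and 37 tested. Of these, 10 were higher and 6 lower, or 43.2% of those tested, against 26.7% of all genes. Among the called genes, ALOX5AP and ANXA10 passed the filter only through the group where they were high. The lists were chosen with earlier results of these data known, so this share and the counts by list below are descriptions only. The median log2 fold change was 0.18 over the 37 genes, 0.335 over the 9 tested members and 0.01 over all tested genes. The median of the members is the value of PTGER2, which passed the filter only through the dexamethasone libraries, so it is no support.

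Among 9 tested genes for the release and re-esterification of arachidonic acid, 3 were higher and 1 lower (44.4% called, 26.7% of all genes). ACSL4, which couples arachidonic acid to coenzyme A and so draws it back toward membrane lipids, rose from 6.53 ± 2.35 to 14.5 ± 3.05 FPKM (SD, n = 4, log2 fold change 1.08, limma adjusted p = 0.0105). ACSL3, a related acyl-CoA synthetase, rose from 21.5 ± 4.33 to 39.1 ± 2.95 FPKM (log2 fold change 0.85, limma adjusted p = 0.00358). MGLL, monoacylglycerol lipase, which can supply arachidonic acid from an endocannabinoid, rose from 30.9 ± 3.42 to 48.8 ± 6.21 FPKM (log2 fold change 0.64, limma adjusted p = 0.00777). MBOAT7, which places arachidonic acid in phosphatidylinositol, fell (log2 fold change -0.60, limma adjusted p = 0.0357). That call was lost without untreated replicate 1 (-0.63) or dexamethasone replicate 1 (-0.55), 3 (-0.61) or 4 (-0.54).

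Of 5 further tested genes on the list of prostanoid synthases, PTGES3 among them, 2 were lower (40% called, 26.7% of all genes). TBXAS1, thromboxane synthase, fell from 8.52 ± 0.968 to 5.34 ± 0.704 FPKM (SD, n = 4, log2 fold change -0.59, limma adjusted p = 0.00916). AKR1B1, an aldo-keto reductase with prostaglandin F synthase activity, was at 1062, 966, 1004 and 2430 FPKM without treatment and at 540, 590, 590 and 894 FPKM after dexamethasone. Its log2 fold change of -0.97 was close to the threshold (limma adjusted p = 0.0461). The call was lost without untreated replicate 1 (-1.05) or 4 (-1.08), and without dexamethasone replicate 1 (-0.89), 3 (-0.94) or 4 (-0.93). It was also lost without a filter on low values (limma adjusted p = 0.0689). AKR1C3, a related prostaglandin F synthase, could share reads with similar family members. It was at 1157 ± 140 and 1517 ± 48.3 FPKM (SD, n = 4, log2 fold change 0.40, limma adjusted p = 0.0897). It passed without untreated replicate 5 (0.45, limma adjusted p = 0.0159), without both replicates numbered 5 (0.44, limma adjusted p = 0.0046) and without scaling between libraries (limma adjusted p = 0.0126). In this order, those fits called 3866 of 12277, 5512 of 12232 and 3281 of 12161 tested genes.

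For transport and breakdown, 1 of 4 tested genes was higher and 1 lower (50% called, 26.7% of all genes). PTGR3, a further prostaglandin reductase, rose from 2.35 ± 0.176 to 3.51 ± 0.310 FPKM (SD, n = 4, log2 fold change 0.43, limma adjusted p = 0.0168). That call was lost without scaling between libraries (adjusted p = 0.0521 in limma) and without dexamethasone replicate 3 (0.42) or 4 (0.40). CBR3, a carbonyl reductase, fell from 5.97 ± 1.13 to 2.47 ± 0.228 FPKM (log2 fold change -1.0, limma adjusted p = 0.000587). In the neighbouring lipoxygenase arm, 1 of 5 tested genes was called (20%, against 26.7% of all genes). ALOX5AP, the protein that presents arachidonic acid to 5-lipoxygenase, was at 0.382, 0.185, 0.507 and 0.651 FPKM without treatment and at 4.78, 4.12, 4.05 and 5.49 FPKM after dexamethasone (log2 fold change 1.97, limma adjusted p = 1.08e-05). It reached 0.5 FPKM in 2 untreated and 4 dexamethasone libraries, so it met the filter only through the group where it was high, and its count among the tested genes is no support. The gene of that lipoxygenase, ALOX5, lay between 0.0758 and 0.304 FPKM in all 8 libraries, under the filter.

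All 11 other annexins passed the filter, and 4 were higher and 2 lower (54.5% called, 26.7% of all genes). ANXA2, a membrane-bridging annexin, was the most abundant of the family and rose from 1587 ± 183 to 2689 ± 320 FPKM (SD, n = 4, log2 fold change 0.76, limma adjusted p = 0.00971). Its partner S100A10, which binds ANXA2 in a tetramer, rose from 125 ± 35.9 to 277 ± 60.2 FPKM (log2 fold change 1.16, limma adjusted p = 0.00436). ANXA8 rose from 7.84 ± 1.96 to 27.8 ± 3.77 FPKM (log2 fold change 1.72, limma adjusted p = 0.000149), although near-identical copies of this gene could share its reads. ANXA5, a phosphatidylserine-binding annexin, rose with a log2 fold change of 0.67 (limma adjusted p = 0.00957) and ANXA4 with 0.47 (limma adjusted p = 0.0171). The ANXA4 call was lost without untreated replicate 1 (0.47) or 3 (0.42) or dexamethasone replicate 1 (0.45).

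The annexins that fell were ANXA10, from 1.94 ± 0.702 to 0.255 ± 0.149 FPKM (SD, n = 4, log2 fold change -1.20, limma adjusted p = 0.00082), and ANXA13 (log2 fold change -0.59, limma adjusted p = 0.00475). ANXA10 passed the filter only through the untreated libraries, with the same limit. S100A11, a binding partner of annexin A1, was at 419 ± 107 and 451 ± 64.3 FPKM (SD, n = 4, log2 fold change 0.13, 95% interval -0.32 to 0.57, limma adjusted p = 0.66). The formyl peptide receptors FPR1 and FPR2, through which annexin A1 signals, were listed at 0 in all 4 untreated libraries and reached at most 0.137 FPKM after dexamethasone.

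**Figure D5:**
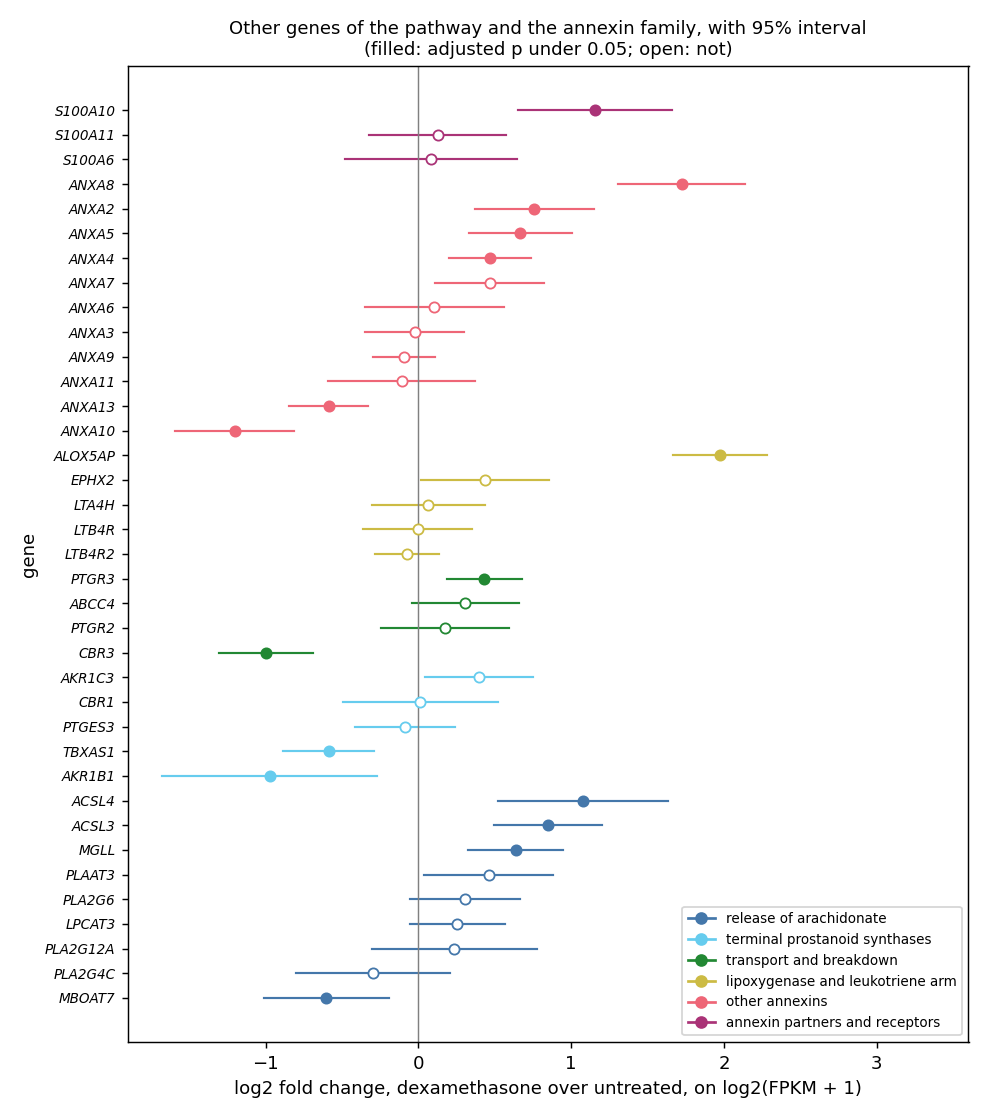
Log2 fold change of dexamethasone over untreated on the log2(FPKM + 1) scale (x axis) for the 37 tested genes of the other lists (y axis), coloured by list, with the limma 95% interval as a line. Filled points passed an adjusted p of 0.05: ALOX5AP at 1.97 and ANXA8 at 1.72 lie farthest to the right, and ANXA10 at -1.20 and CBR3 at -1.0 farthest to the left.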

How the data were processed

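RNA-seq values of 8 A549 libraries (4 untreated, 4 dexamethasone) were used, grouped by their titles. Per the submitters' processing notes, the authors used FastQC 0.11.9, cutadapt 3.4, STAR 2.7.9a on GRCh38, featureCounts of Subread 2.0.3 and DESeq2 1.32.0; the annotation release, the use of strand and the step that gave the deposited unit are not given in the sources used here. The deposited values are called counts in the labels but hold no whole numbers above 0, and they were read as FPKM from the values (sums of 338989 to 373855 per library). Low values of genes with 1 transcript fell within 0.1 of a whole number of fragments in 35.8% to 45.6% of cases. At a depth fixed beforehand 20% would by chance. The depth was chosen to bring these same values nearest to whole numbers, so chance gives more than 20% here. Whole reads could not be recovered, so count models were not used, and the depth given is an estimate from these steps.

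FPKM were divided by a trimmed mean of M values per library (0.3 of M and 0.05 of A values trimmed on each side; factors 0.824 to 1.09), genes with at least 0.5 FPKM in at least 4 libraries were kept (3 where a library was left out), and limma 3.58.1 (R 4.3.3; eBayes with trend and robust) was applied to log2(FPKM + 1), two-sided, with group as the only term and Benjamini-Hochberg adjustment over all genes tested. The procedure was run on simulated data in which libraries were drawn independently. Those data hold no departure like that of replicate 5, so the run says nothing about it. GC content is the mean over GENCODE v44 transcripts, found for 19065 genes. Promoters are RefSeq windows, matched for all 10 members by symbol; of several start sites the one nearest to the Ensembl canonical transcript was taken. Named genes are the 10 members, list genes called with a log2 fold change of at least 0.5 in either direction, and the 3 genes most correlated with PTGS2 and ANXA1; PTGES3, AKR1C3, PTGR3, ANXA4, ALOX5, S100A11 and the receptors were named in addition after their values were seen. The members and lists were chosen with earlier results of these data known.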

Additional observations from a re-analysis of the deposited data

Results flagged for a closer look

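In each group of 4 libraries, the gap of the highest or lowest library to its neighbour was divided by the range of the 4, for the 10 members and 14 called genes of the lists (48 groups of values). A library stood apart in 8 of them, where chance gives about 1 in 20, or 2, and all 8 were replicate 5. Among the members, PTGES was at 81.6 FPKM in untreated replicate 5, against 42.6 to 47.5 FPKM in the other untreated libraries. PTGES2 was at 24.0 FPKM in dexamethasone replicate 5, against 17.2 to 18.2 FPKM. HPGD was at 10.4 FPKM in untreated replicate 5, against 18.6 to 19.9 FPKM.

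Among the list genes, AKR1B1 stood at 2430 FPKM in untreated replicate 5 (others 966 to 1060 FPKM) and at 894 FPKM in dexamethasone replicate 5 (others 540 to 590 FPKM). MBOAT7 stood at 78.2 FPKM (others 50.1 to 54.3 FPKM) and CBR3 at 7.65 FPKM (others 5.19 to 5.58 FPKM) in untreated replicate 5. S100A10 stood at 366 FPKM in dexamethasone replicate 5, against 237 to 257 FPKM.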

How the results depend on the processing

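PTGS2, HPGD, PTGER4 and PTGR1 kept their direction and their call under all 18 other settings, and PTGER2 under the 17 in which it was tested. The log2 fold change ranged from -2.01 to -1.22 for PTGS2, 1.13 to 1.60 for HPGD, 0.79 to 1.49 for PTGER4, 0.28 to 0.82 for PTGER2 and 0.50 to 0.68 for PTGR1; the ends farthest from 0 for PTGS2, PTGER4 and PTGER2 came with a pseudocount of 0.1. The number of members called was 5 to 5 when 1 library was left out, 6 without both libraries numbered 5 or without a filter, 4 with a minimum of 1 FPKM and 7 with the GC trend removed. Over all genes, 5512 of 12232 tested were called without both libraries numbered 5 and 3593 of 16561 without a filter. With a minimum of 1 FPKM 2992 of 11424 were called, and with the GC trend removed 4427 of 12152. PLA2G4A, at -0.38 to 0.00638 when 1 library was left out, changed sign only without dexamethasone replicate 5 (limma adjusted p = 0.987).

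Genes called numbered 3250, and 2318 to 3866 when 1 library was left out. Without both libraries numbered 5 they were 5512, 3211 of them shared with the 3250; the cause was not tested. The replicate numbers were not shown to pair the wells: deviations from the group means correlated at 0.292, 0.066, 0.314 and 0.714 for numbers 1, 3, 4 and 5, and not every library correlated best with its own number. With the replicate number as a block 5748 genes were called, and 5284 with the block and the GC trend removed; 7 members were called in each, ANXA1 (limma adjusted p = 0.0214) and PTGES2 (0.049) joining in the first, PTGES (0.00207) and PLA2G4A (0.00284) in the second. For the 19 named list genes, fits with the same settings, chosen after seeing the data, kept the direction in all 342 cases and the side of the threshold in 319. MBOAT7 lost its call in 4, AKR1B1 in 6, PTGR3 in 3 and ANXA4 in 3, whereas AKR1C3 passed in 5 and PTGES3 in 2. Without both libraries numbered 5, AKR1C3, ABCC4, EPHX2 and ANXA7 were called in addition. Values under 0.5 FPKM limit what can be said of PTGS1 and most prostanoid receptors.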

Other observations

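Several genes of the lists lay under the filter in untreated cells and higher in treated ones. They were singled out after their values were seen, so the p-values below are no support. In the fit without a filter on low values, 21.7% of 16561 genes passed. PLA2G10, a secreted phospholipase A2, was at 0, 0.0504, 0 and 0 FPKM without treatment (replicates 1, 3, 4 and 5) and at 1.29, 0.340, 0.715 and 0.982 FPKM after dexamethasone. Without a filter on low values it passed the test (limma adjusted p = 0.00531). ALOX15B, a lipoxygenase of epithelia and macrophages, stood at 0 in each untreated library and at 0.210, 0.359, 0.255 and 0.312 FPKM in the treated ones (limma adjusted p = 0.000273 without a filter). FPR1 was listed at 0 in the untreated libraries and was at 0.0390, 0.0946, 0.0188 and 0.137 FPKM in the treated ones (limma adjusted p = 0.0668 without a filter). No fold is given against a group listed at 0.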
